A study of Arabidopsis thaliana with 20 samples.

Results

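The genes described here are 39 loci of Arabidopsis thaliana that act in DNA replication and the cell cycle, out of 34262 genes with a row in the 20 count files. The rule that chose them is a list of locus identifiers, set by function with earlier results of these data known. All 39 had a row, and all 39 passed the filter on low counts that left 21703 genes for testing. They form 3 lists: 20 replication genes (S phase), 15 mitotic genes and 4 genes of entry into the cycle. RNA came from the aboveground tissue of bolting plants in the Col-0 background, and 6 groups were sequenced. The T+ dwarf and T+ normal groups, 3 samples each, carry a transgene that overexpresses PPD3, which encodes a PsbP-domain protein of the plastid, and come from dwarf and from normal-sized plants. The Gen1 dwarf group (PPD3-OX null, 3 samples) shares its parents with the T+ plants but lacks the transgene. Gen2, the offspring of Gen1 and also null, was sampled as dwarf (5 samples) and large (3 samples) plants, and 3 samples were wild type (WT). Which promoter drives the transgene, how many independent lines were used and how many plants made up a sample is not stated. The label of WT 3 names the ecotype Col-1 although its source name reads Col-0.

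In plants, as in other eukaryotes, the origin recognition complex (ORC) marks replication origins, CDC6 and CDT1 load the MCM helicase onto them, and CDC45 and MCM10 help to start the helicase in S phase. E2F factors, released from the retinoblastoma-related protein when D-type cyclins and their kinases are active, switch on many of these genes. In G2 and mitosis another set is transcribed, with B-type cyclins, the plant-specific B-type kinases (CDKB) and the cytokinesis syntaxin KNOLLE, and MYB3R factors that bind mitosis-specific activator (MSA) elements control many of them. In a bolting shoot, dividing cells lie mainly in meristems, young leaves and young inflorescences, while most of the tissue has left the cycle. In RNA from whole shoots, fewer dividing cells and less RNA per dividing cell cannot be told apart.

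The annotated starts of the genes carry these 2 kinds of element unequally. Promoters were read as the 250 bases before the gene start in the RefSeq annotation of TAIR10.1, and both strands were searched. An E2F word (TTTCCCGC, TTTGGCGC, TTTCGCGC or TTTGCCGC) was present in 8 of 20 replication promoters (40%), 0 of 15 mitotic promoters and 1 of 4 entry promoters, against 1.41% of 27443 protein-coding promoters. An MSA word (CCAACGG or CTAACGG) was present in 1 of 20 replication promoters (5%), 6 of 15 mitotic promoters (40%) and 0 of 4 entry promoters, against 2.58% of all. The shorter core of the latter, AACGG, which every MSA word contains, was present in 25%, 60% and 50% of the lists and in 20.6% of all promoters. Site II words (TGGGCC or TGGGCT), found in promoters of many genes of growing cells, were present in 60% of replication, 13.3% of mitotic and 25% of entry promoters, against 19.2%. A word is a match of letters and not a shown binding site. The promoters of MCM4 and MCM5, helicase genes called lower in dwarf plants, are printed as examples of the E2F word, and those of CYCB1;2 and CYCB2;3, B-type cyclin genes, as examples of the MSA word, read along the gene's own strand with the words in capitals.
MCM4 (chr2:7130730-7130979, minus strand): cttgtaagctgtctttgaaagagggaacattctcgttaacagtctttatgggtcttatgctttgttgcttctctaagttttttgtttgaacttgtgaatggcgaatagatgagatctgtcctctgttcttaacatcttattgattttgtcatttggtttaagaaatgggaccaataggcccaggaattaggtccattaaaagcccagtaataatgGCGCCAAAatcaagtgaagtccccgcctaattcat
MCM5 (chr2:3527501-3527750, minus strand): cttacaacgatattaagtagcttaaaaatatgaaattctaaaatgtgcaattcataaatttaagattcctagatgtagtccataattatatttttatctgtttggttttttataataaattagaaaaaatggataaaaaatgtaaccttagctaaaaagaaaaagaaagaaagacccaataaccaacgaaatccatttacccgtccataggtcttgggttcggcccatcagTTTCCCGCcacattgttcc
CYCB1;2 (chr5:1861704-1861953, minus strand): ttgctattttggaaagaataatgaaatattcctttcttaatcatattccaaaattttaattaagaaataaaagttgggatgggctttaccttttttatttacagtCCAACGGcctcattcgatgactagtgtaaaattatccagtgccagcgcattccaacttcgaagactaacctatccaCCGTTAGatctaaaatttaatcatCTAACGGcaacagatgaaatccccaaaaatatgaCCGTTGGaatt
CYCB2;3 (chr1:7137829-7138078, minus strand): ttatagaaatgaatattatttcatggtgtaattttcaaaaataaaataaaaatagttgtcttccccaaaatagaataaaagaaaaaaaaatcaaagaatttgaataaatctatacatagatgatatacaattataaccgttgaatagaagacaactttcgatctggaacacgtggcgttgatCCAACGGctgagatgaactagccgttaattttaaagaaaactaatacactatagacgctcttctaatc

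The E2F word of MCM4 began 35 bases before the gene start and that of MCM5 19 bases before it. CYCB1;2 held 4 MSA words, the most of any member, at 145, 69, 45 and 11 bases, and CYCB2;3 held 1 at 68 bases. ORC2 was the only member with both kinds. E2FA, which binds E2F sites, had no E2F word in its own window, and CYCD3;3 was the entry gene that had one.

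**Figure D1:**
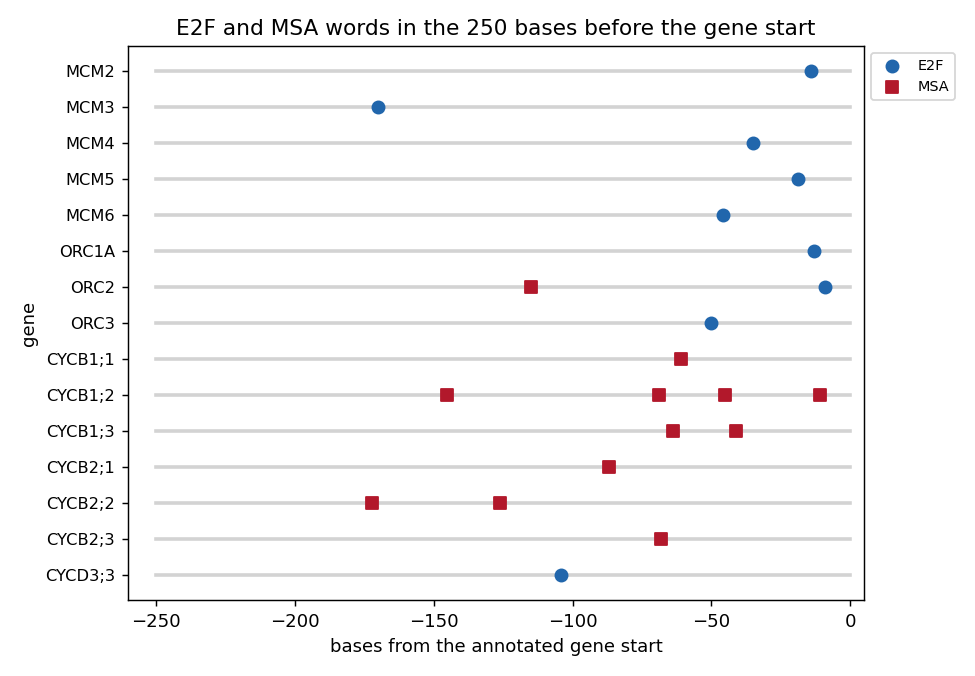
Positions of E2F words (blue circles) and MSA words (red squares) in the 250 bases before the annotated gene start, in bases, for the members that hold at least 1. The blue circles lie in 8 replication genes and CYCD3;3, and the red squares in 6 B-type cyclin genes and ORC2.

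Depth was high for all of these genes. Counts assigned to genes ran from 45728485 to 117753467 per sample, and the lowest count of any member in any sample was 29, for CYCB2;1. PPD3 stood at 380.8 to 812.2 CPM (counts scaled to the library's TMM-adjusted total) in the 6 T+ samples and at 92.41 to 147.8 CPM in the other 14, as the genotype labels state. T+ normal 1 lay apart from the other samples in a principal component analysis of 2000 genes, at 68.31 on the axis with 25.25% of the variance and at −57.12 on the next with 15.47%. Root markers summed to at most 0.7631 CPM in any sample. Of 5 shoot meristem markers, WUS and CLV3 averaged at most 0.0398 CPM in any group, so the stem cell centre itself is barely seen in this RNA. Since the labels say only that samples are biological replicates, a p-value covers no more than the variation among the plants sampled.

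Levels differed widely between members. Per kilobase of exon, TSO2 (AT3G27060), the small subunit of ribonucleotide reductase that supplies DNA precursors, was the highest, with 62.17 CPM per kb as the mean of 20 samples. The sliding clamp gene PCNA2 (AT2G29570) followed at 21.08 CPM per kb and KNOLLE (AT1G08560) at 16.74 CPM per kb. The lowest were the B-type cyclin gene CYCB2;1 (AT2G17620) at 0.9353 CPM per kb and the origin subunit gene ORC1A (AT4G14700) at 0.7184 CPM per kb. Among the subunits of the helicase, which act as a ring, the levels of MCM2, MCM5, MCM3, MCM7, MCM6 and MCM4 lay between 12.53 and 7.032 CPM per kb. The origin subunits spread further, from 6.369 CPM per kb for ORC6 to that of ORC1A. CYCB2;1 also varied most across samples, with a highest level 6.54 times its lowest, and CYCB1;1 followed at 6.495 times. ORC5 varied least, at 1.302 times.

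**Figure D2:**
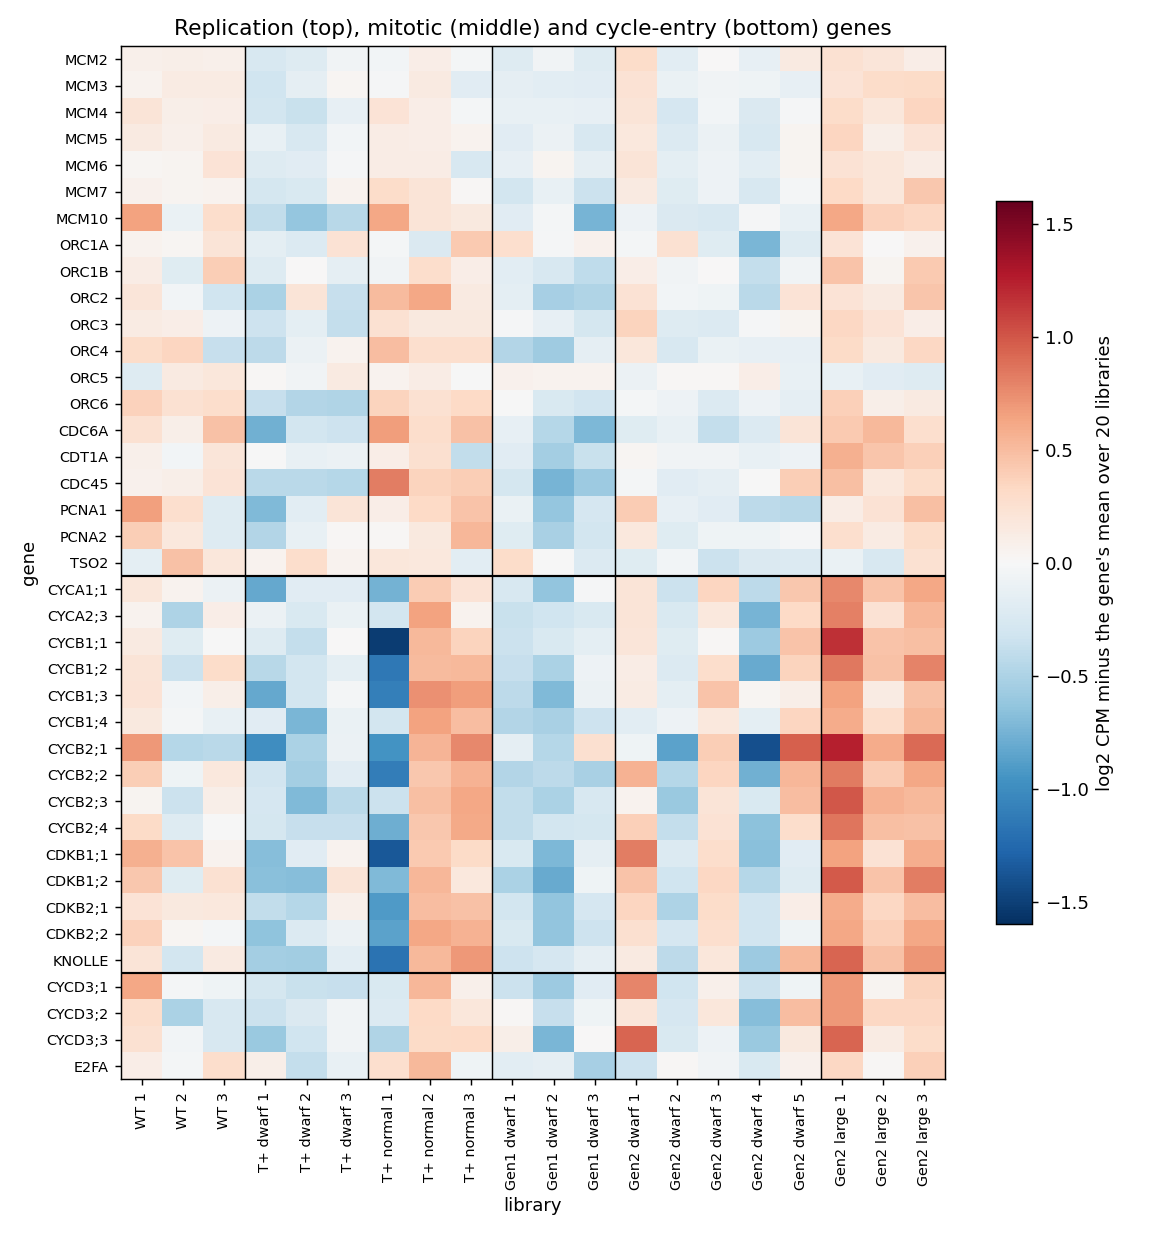
Level of each of the 39 genes (rows) in each of the 20 libraries (columns), as log2 CPM minus the gene's own mean over the 20, from blue (lower) to red (higher). The replication genes are pale blue in most dwarf libraries, all 15 mitotic genes are blue in T+ normal 1, and all 15 are red in the 3 Gen2 large libraries.

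The broadest question the groups allow is how dwarf plants differ from plants that are not dwarf, whatever their genotype. Set as the mean of the 3 dwarf groups against the mean of T+ normal, Gen2 large and WT, 30 of the 39 genes fell and none rose (edgeR's quasi-likelihood test, Benjamini-Hochberg adjusted p under 0.05). In this comparison 32.8% of all tested genes were called, 17.8% higher and 15% lower. The falls covered 16 of 20 replication genes, 12 of 15 mitotic genes and 2 of 4 entry genes. The median log2 difference was −0.34 for replication genes, −0.51 for mitotic genes and −0.34 for entry genes, against 0.004 for all tested genes. Of the 39 estimates 38 were negative, and ORC5 was the exception (0.05 ± 0.06, SE, adjusted p = 0.547). Leaving out 1 library at a time gave 22 (without T+ normal 2) to 33 (without T+ normal 1) called members, and the mitotic median was −0.61 without T+ normal 1.

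Of the origin complex, ORC6 (AT1G26840, chromosome 1, from 9298670 to 9300800) gave the clearest separation. It stood at 9.7, 8.913 and 9.188 CPM in WT, at 9.625, 8.911 and 9.419 CPM in T+ normal and at 9.788, 8.042 and 8.35 CPM in Gen2 large. Levels were 5.806, 5.412 and 5.364 CPM in T+ dwarf, 7.513, 6.344 and 6.062 CPM in Gen1 dwarf, and 7.387, 7.121, 6.465, 7.117 and 6.837 CPM in Gen2 dwarf. All 11 dwarf samples lay below all 9 others. How many of all tested genes separated the samples in this way is not given here, and of the 39 members only ORC6 did. Its log2 difference was −0.52 ± 0.07 (SE, edgeR adjusted p = 2.09e-05). 

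ORC4 (AT2G01120), another origin subunit, had 10.95, 11.36 and 6.933 CPM in WT, 12.63, 10.78 and 10.73 CPM in T+ normal and 11.05, 9.927 and 11.27 CPM in Gen2 large. For ORC4, dwarf samples had 6.663, 8.35 and 9.247 CPM in T+ dwarf, 6.435, 6.029 and 8.075 CPM in Gen1 dwarf and 10.11, 7.483, 8.286, 8.122 and 8.176 CPM in Gen2 dwarf. WT 3 and Gen2 large 2 lay in the range of the dwarf samples. Only T+ dwarf 1, Gen1 dwarf 1 and Gen1 dwarf 2 lay below every sample that was not dwarf. ORC4 fell by 0.45 ± 0.10 on the log2 scale (SE, edgeR adjusted p = 0.00196). ORC2 (AT2G37560) had 4.748, 4.017 and 3.319 CPM in WT, 5.877, 6.352 and 4.579 CPM in T+ normal and 4.797, 4.586 and 5.634 CPM in Gen2 large. For ORC2, dwarf samples had 2.915, 4.794 and 3.195 CPM in T+ dwarf, 3.719, 2.862 and 2.954 CPM in Gen1 dwarf and 4.861, 4.002, 3.947, 3.065 and 4.824 CPM in Gen2 dwarf. The highest values were those of T+ normal 1 and 2, and the 2 sets of samples overlapped. Its log2 difference was −0.41 ± 0.12 (adjusted p = 0.0145). ORC3 (AT5G16690) had 11.16, 10.96 and 9.611 CPM in WT, 12.08, 11.39 and 11.38 CPM in T+ normal and 12.84, 11.88 and 10.94 CPM in Gen2 large. For ORC3, dwarf samples had 8.109, 9.18 and 7.824 CPM in T+ dwarf, 10.05, 9.291 and 8.426 CPM in Gen1 dwarf and 13.02, 8.839, 8.733, 10.1 and 10.49 CPM in Gen2 dwarf. Gen2 dwarf 1 was the highest of all 20 samples, yet ORC3 fell over the groups by 0.29 ± 0.08 (adjusted p = 0.00705). ORC1B (AT4G12620), the more abundant of the ORC1 genes, had 7.893, 6.369 and 9.586 CPM in WT, 6.973, 8.872 and 7.859 CPM in T+ normal and 10.04, 7.502 and 9.708 CPM in Gen2 large. For ORC1B, dwarf samples had 6.333, 7.31 and 6.577 CPM in T+ dwarf, 6.463, 6.081 and 5.504 CPM in Gen1 dwarf and 7.84, 6.986, 7.294, 5.576 and 6.996 CPM in Gen2 dwarf. The 2 sets overlapped, and the 3 highest values were those of Gen2 large 1, Gen2 large 3 and WT 3. ORC1B fell by 0.34 ± 0.09 (adjusted p = 0.00848), while ORC1A (−0.12 ± 0.14, adjusted p = 0.529) and ORC5 did not pass.

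Of the loading and firing factors, CDC6A, MCM10 and CDC45 had the 3 largest differences among replication genes, while CDT1A lay within the range of the origin and clamp genes. CDC6A (AT2G29680), a loader of the helicase, had 8.378, 7.53 and 9.778 CPM in WT, 11.24, 8.599 and 9.772 CPM in T+ normal and 9.428, 10.12 and 8.52 CPM in Gen2 large. It had 4.128, 5.736 and 5.62 CPM in T+ dwarf, 6.444, 5.124 and 4.289 CPM in Gen1 dwarf and 6.179, 6.534, 5.43, 6.061 and 8.14 CPM in Gen2 dwarf. Only Gen2 dwarf 5 reached the range of the plants that were not dwarf, where it exceeded WT 2. The log2 difference of CDC6A was −0.72 ± 0.10 (SE, edgeR adjusted p = 5.09e-05), the largest of the 39. The CDC6A locus overlaps AT2G29679 on the opposite strand, and the strand setting of the counting is not given, so reads of the 2 cannot be told apart.

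MCM10 (AT2G20980), which acts at the start of synthesis, had 11.41, 6.793 and 8.855 CPM in WT, 11.23, 8.43 and 8.143 CPM in T+ normal and 11.26, 9.475 and 9.214 CPM in Gen2 large. For MCM10, dwarf samples had 5.549, 4.752 and 5.352 CPM in T+ dwarf, 6.454, 7.176 and 4.366 CPM in Gen1 dwarf and 6.934, 6.217, 6.138, 7.204 and 6.748 CPM in Gen2 dwarf. Of the 9 samples that were not dwarf, only WT 2 lay in the dwarf range. Its difference was −0.67 ± 0.11 (SE, edgeR adjusted p = 0.000154). CDC45 (AT3G25100), a partner of the active helicase, had 6.407, 6.491 and 7.112 CPM in WT, 10.81, 7.833 and 8.007 CPM in T+ normal and 8.505, 6.844 and 7.486 CPM in Gen2 large. For CDC45, dwarf samples had 4.508, 4.513 and 4.454 CPM in T+ dwarf, 5.034, 3.63 and 4.081 CPM in Gen1 dwarf and 5.978, 5.358, 5.539, 6.096 and 8.016 CPM in Gen2 dwarf. Gen2 dwarf 5 was the only dwarf sample in the range of the others. Over the groups CDC45 fell by 0.64 ± 0.10 on the log2 scale (SE, edgeR adjusted p = 7.82e-05). CDT1A (AT2G31270), the other loader of the helicase, had 14.85, 13.56 and 15.99 CPM in WT, 15.1, 16.77 and 10.68 CPM in T+ normal and 20.85, 19.05 and 18.29 CPM in Gen2 large. For CDT1A, dwarf samples had 14.03, 12.93 and 13.13 CPM in T+ dwarf, 12.41, 9.638 and 11 CPM in Gen1 dwarf and 14.3, 13.47, 13.49, 12.9 and 13.23 CPM in Gen2 dwarf. The 3 Gen2 large samples lay above all 17 others, while T+ normal 3 and WT 2 lay in the dwarf range. CDT1A fell by 0.35 ± 0.08 (adjusted p = 0.00192).

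The helicase subunits themselves had smaller differences. MCM7 (AT4G02060), known in Arabidopsis as PROLIFERA, had 29.5, 29.04 and 29.27 CPM in WT, 34.4, 32.41 and 28.31 CPM in T+ normal and 35.1, 31.93 and 37.91 CPM in Gen2 large. For MCM7, dwarf samples had 23.03, 23.69 and 29.28 CPM in T+ dwarf, 22.79, 25.86 and 22.13 CPM in Gen1 dwarf and 31.04, 24.57, 26.52, 23.57 and 27.45 CPM in Gen2 dwarf. T+ dwarf 3 and Gen2 dwarf 1 reached the range of the other groups, and MCM7 fell by 0.34 ± 0.07 on the log2 scale (SE, edgeR adjusted p = 0.000636). MCM4 (AT2G16440) had 23.11, 21.27 and 21.43 CPM in WT, 23.25, 21.54 and 19.46 CPM in T+ normal and 24.42, 22.57 and 25.34 CPM in Gen2 large. For MCM4, dwarf samples had 16.3, 15.56 and 18.2 CPM in T+ dwarf, 18.4, 18.35 and 18.28 CPM in Gen1 dwarf and 23.01, 16.5, 19.3, 16.95 and 19.66 CPM in Gen2 dwarf. All T+ dwarf and Gen1 dwarf samples lay below every sample that was not dwarf, while Gen2 dwarf 1 and 5 overlapped with them. MCM4 fell by 0.32 ± 0.06 (adjusted p = 0.000956). MCM5 (AT2G07690) had 33.53, 32.25 and 33.42 CPM in WT, 33.07, 32.71 and 31.5 CPM in T+ normal and 38.52, 32.53 and 35.41 CPM in Gen2 large. For MCM5, dwarf samples had 28.05, 25.5 and 29.34 CPM in T+ dwarf, 26.77, 28.59 and 25.45 CPM in Gen1 dwarf and 34.19, 26.11, 28.39, 25.4 and 31.2 CPM in Gen2 dwarf. Gen2 dwarf 1 was the only dwarf sample inside the range of the others, and MCM5 fell by 0.27 ± 0.06 (adjusted p = 0.00179).

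MCM3 (AT5G46280) had 34.06, 36.15 and 36.13 CPM in WT, 32.32, 36.21 and 28.97 CPM in T+ normal and 38.16, 40.3 and 40.53 CPM in Gen2 large. For MCM3, dwarf samples had 26.32, 29.75 and 33.45 CPM in T+ dwarf, 29.81, 29.22 and 29.03 CPM in Gen1 dwarf and 38.68, 30.59, 31.53, 31.4 and 29.9 CPM in Gen2 dwarf. All WT and T+ normal samples and Gen2 large 1 lay within the dwarf range of 26.32 to 38.68 CPM. The top of that range was Gen2 dwarf 1. MCM3 fell by 0.23 ± 0.06 on the log2 scale (SE, edgeR adjusted p = 0.00693). MCM2 (AT1G44900) had 42.09, 42.36 and 42.12 CPM in WT, 38.54, 42.54 and 38.95 CPM in T+ normal and 47.03, 45.38 and 42.8 CPM in Gen2 large. For MCM2, dwarf samples had 33.32, 34.4 and 38.13 CPM in T+ dwarf, 34.25, 38.14 and 34.27 CPM in Gen1 dwarf and 48.77, 35.27, 39.75, 36.07 and 43.8 CPM in Gen2 dwarf. Gen2 dwarf 1 was the highest of all 20 samples, but all T+ dwarf and Gen1 dwarf samples lay below every sample that was not dwarf. MCM2 fell by 0.19 ± 0.06 (adjusted p = 0.0193), while MCM6 (−0.17 ± 0.07, adjusted p = 0.0517) did not pass.

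At the fork, both clamp genes fell. PCNA2 (AT2G29570) had 32.12, 27.63 and 21.26 CPM in WT, 24.89, 27.24 and 35.53 CPM in T+ normal and 29.43, 26.75 and 30.1 CPM in Gen2 large. For PCNA2, dwarf samples had 17.79, 22.68 and 24.87 CPM in T+ dwarf, 21.45, 17.18 and 20.06 CPM in Gen1 dwarf and 27.48, 21.39, 23.35, 23.34 and 24.14 CPM in Gen2 dwarf. The sets overlapped, from the lowest value in Gen1 dwarf 2 to the highest in T+ normal 3, and PCNA2 fell by 0.38 ± 0.09 on the log2 scale (SE, edgeR adjusted p = 0.00271). PCNA1 (AT1G07370) had 18.36, 14.02 and 10.07 CPM in WT, 12.5, 14.47 and 15.95 CPM in T+ normal and 12.63, 13.59 and 16.16 CPM in Gen2 large. For PCNA1, dwarf samples had 7.092, 10.32 and 13.34 CPM in T+ dwarf, 10.77, 7.576 and 9.629 CPM in Gen1 dwarf and 15.39, 10.56, 10.25, 8.658 and 8.521 CPM in Gen2 dwarf. T+ dwarf 1 was lowest and WT 1 highest, and PCNA1 fell by 0.50 ± 0.14 (adjusted p = 0.00982). TSO2 (AT3G27060) had 93.42, 143.3 and 118.1 CPM in WT, 118.3, 117 and 92.81 CPM in T+ normal and 96.6, 86.8 and 122.9 CPM in Gen2 large. For TSO2, dwarf samples had 107.9, 126.6 and 108.2 CPM in T+ dwarf, 127.2, 103.6 and 89.64 CPM in Gen1 dwarf and 91, 100.9, 81.91, 88.19 and 89.29 CPM in Gen2 dwarf. Here WT 2 was highest and Gen2 dwarf 3 lowest, the sets overlapped widely, and TSO2 did not pass (−0.09 ± 0.09, adjusted p = 0.487). The MCM7, ORC4, PCNA2, ORC1A and TSO2 loci each overlap another annotated gene. The 8 replication genes with an E2F word had a median of −0.25 and the 12 without had a median of −0.42, and this was not tested. Only the listed E2F words before the gene start were searched, so a gene without one can still hold a related sequence. The windows of CDC45 and CDT1A, for example, hold tttggcgg and tttcgcgg, which differ from searched words in the last letter alone.

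**Figure D3:**
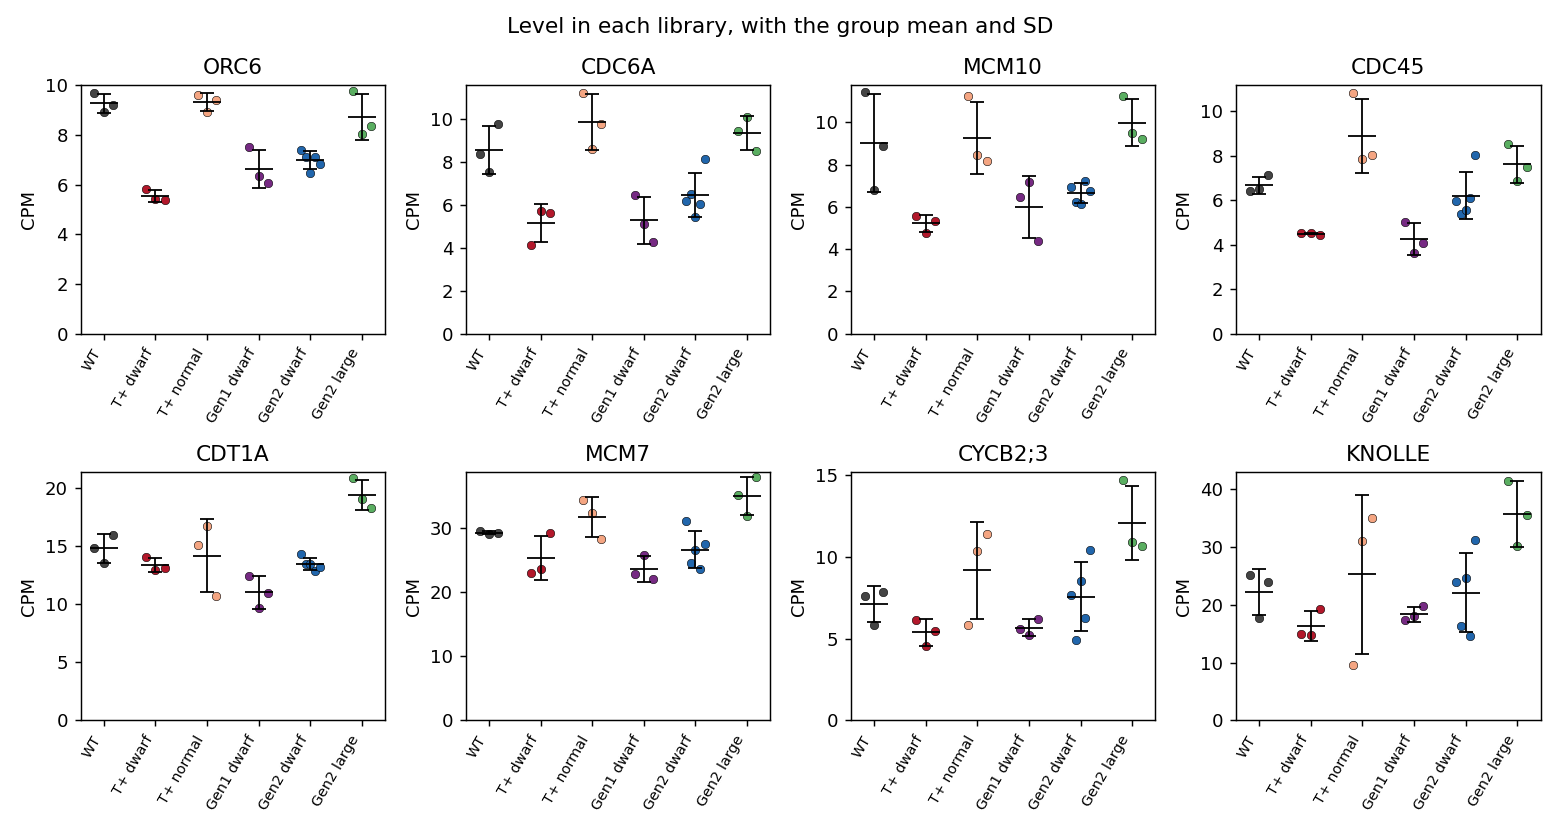
Level in CPM (vertical axis, from 0) of 8 members in each library, by group, with the group mean (bar) and SD (whisker), n = 3 per group and 5 for Gen2 dwarf. For ORC6 all 11 dwarf libraries lie below all 9 others, while for CYCB2;3 and KNOLLE 1 T+ normal library lies far below the other 2.

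Mitotic genes had a larger median difference than replication genes, but the groups were not alike in it. Against WT, the mitotic median was −0.42 in T+ dwarf, −0.39 in Gen1 dwarf and −0.01 in Gen2 dwarf. It was 0.12 in T+ normal and 0.57 in Gen2 large. CYCB2;3 (AT1G20610), a B-type cyclin, had 7.622, 5.824 and 7.868 CPM in WT, 5.815, 10.35 and 11.39 CPM in T+ normal and 14.69, 10.9 and 10.63 CPM in Gen2 large. It had 6.125, 4.527 and 5.48 CPM in T+ dwarf, 5.592, 5.198 and 6.204 CPM in Gen1 dwarf and 7.689, 4.906, 8.526, 6.234 and 10.41 CPM in Gen2 dwarf. The 2 sets of samples overlapped: all WT samples and T+ normal 1 and 2 lay within the dwarf range of 4.527 to 10.41 CPM. The top of that range was Gen2 dwarf 5. The log2 difference of CYCB2;3 was −0.59 ± 0.14 (SE, edgeR adjusted p = 0.00357). Of its 100-base exon windows 7.19% occur elsewhere in the genome, so part of its reads may be shared.

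CYCB1;4 (AT2G26760), also a B-type cyclin, had 8.025, 7.046 and 6.625 CPM in WT, 5.827, 11.18 and 10.13 CPM in T+ normal and 10.82, 8.759 and 10.28 CPM in Gen2 large. For CYCB1;4, dwarf samples had 6.32, 4.302 and 6.647 CPM in T+ dwarf, 5.204, 5.008 and 5.69 CPM in Gen1 dwarf and 6.39, 6.782, 8.046, 6.442 and 9.142 CPM in Gen2 dwarf. T+ normal 1, all WT samples and Gen2 large 2 lay in the dwarf range, and T+ dwarf 2 was lowest. CYCB1;4 fell by 0.51 ± 0.12 on the log2 scale (SE, edgeR adjusted p = 0.00288), with the smallest p of the mitotic list. CYCB1;2 (AT5G06150) had 13.6, 9.327 and 14.49 CPM in WT, 5.329, 16.76 and 16.89 CPM in T+ normal and 21.16, 16.41 and 20.5 CPM in Gen2 large. For CYCB1;2, dwarf samples had 8.648, 9.658 and 10.55 CPM in T+ dwarf, 9.103, 8.301 and 11.15 CPM in Gen1 dwarf and 12.87, 10.11, 14.33, 6.719 and 15.11 CPM in Gen2 dwarf. T+ normal 1 was the lowest of all 20 samples and Gen2 large 1 the highest, and CYCB1;2 fell by 0.51 ± 0.19 (adjusted p = 0.0418). CYCB1;3 (AT3G11520) had 5.503, 4.583 and 5.049 CPM in WT, 2.204, 7.833 and 7.517 CPM in T+ normal and 7.371, 5.165 and 6.544 CPM in Gen2 large. For CYCB1;3, dwarf samples had 2.658, 3.838 and 4.606 CPM in T+ dwarf, 3.53, 2.883 and 4.432 CPM in Gen1 dwarf and 5.193, 4.228, 6.509, 4.849 and 5.037 CPM in Gen2 dwarf. T+ normal held both the lowest and the highest value, and CYCB1;3 fell by 0.48 ± 0.18 (adjusted p = 0.049).

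CYCB2;2 (AT4G35620) had 9.24, 6.692 and 7.856 CPM in WT, 3.25, 9.417 and 10.3 CPM in T+ normal and 12.44, 9.259 and 10.79 CPM in Gen2 large. For CYCB2;2, dwarf samples had 5.647, 4.78 and 6.145 CPM in T+ dwarf, 5.072, 5.229 and 4.88 CPM in Gen1 dwarf and 10.26, 5.109, 8.897, 4.104 and 10.17 CPM in Gen2 dwarf. T+ normal 1 was again lowest and Gen2 large 1 highest, and CYCB2;2 fell by 0.53 ± 0.19 on the log2 scale (SE, edgeR adjusted p = 0.0412). CYCB2;4 (AT1G76310) had 10.95, 7.651 and 8.778 CPM in WT, 5.142, 11.9 and 13.44 CPM in T+ normal and 15.96, 12.31 and 12.27 CPM in Gen2 large. For CYCB2;4, dwarf samples had 7.251, 6.832 and 6.845 CPM in T+ dwarf, 6.718, 7.176 and 7.288 CPM in Gen1 dwarf and 11.49, 6.782, 10.37, 5.576 and 10.75 CPM in Gen2 dwarf. The same samples were lowest and highest, and CYCB2;4 fell by 0.50 ± 0.16 (adjusted p = 0.0214). CYCB1;1 (−0.39 ± 0.20, adjusted p = 0.138) and CYCB2;1 (−0.61 ± 0.29, adjusted p = 0.114) did not pass.

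Of the 4 B-type kinases 3 fell. CDKB1;2 (AT2G38620) had 5.257, 3.392 and 4.613 CPM in WT, 2.378, 5.637 and 4.396 CPM in T+ normal and 7.694, 5.351 and 6.884 CPM in Gen2 large. For CDKB1;2, dwarf samples had 2.45, 2.432 and 4.489 CPM in T+ dwarf, 2.735, 2.22 and 3.709 CPM in Gen1 dwarf and 5.354, 3.12, 4.928, 2.84 and 3.387 CPM in Gen2 dwarf. Gen1 dwarf 2 was lowest and T+ normal 1 next, and CDKB1;2 fell by 0.59 ± 0.18 on the log2 scale (SE, edgeR adjusted p = 0.0175). CDKB2;1 (AT1G76540) had 17.49, 16.7 and 16.88 CPM in WT, 7.956, 21.16 and 20.74 CPM in T+ normal and 22.62, 18.85 and 21.11 CPM in Gen2 large. For CDKB2;1, dwarf samples had 11.35, 10.91 and 15.89 CPM in T+ dwarf, 12.27, 9.669 and 12.46 CPM in Gen1 dwarf and 18.99, 10.6, 18.4, 12.12 and 16.19 CPM in Gen2 dwarf. T+ normal 1 was lowest and Gen2 large 1 highest, and CDKB2;1 fell by 0.47 ± 0.15 (adjusted p = 0.0267). CDKB2;2 (AT1G20930) had 12.39, 9.791 and 9.432 CPM in WT, 5.279, 14.82 and 14.15 CPM in T+ normal and 14.76, 12.5 and 14.77 CPM in Gen2 large. For CDKB2;2, dwarf samples had 6.149, 8.224 and 9.014 CPM in T+ dwarf, 8.109, 6.197 and 7.649 CPM in Gen1 dwarf and 11.46, 7.958, 11.6, 7.775 and 9.133 CPM in Gen2 dwarf. T+ normal held both extremes, and CDKB2;2 fell by 0.54 ± 0.15 (adjusted p = 0.011). CDKB1;1 did not pass (−0.45 ± 0.21, adjusted p = 0.113).

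KNOLLE (AT1G08560), the syntaxin of the cell plate, had 25.12, 17.68 and 23.95 CPM in WT, 9.612, 31.08 and 35.03 CPM in T+ normal and 41.39, 30.1 and 35.53 CPM in Gen2 large. For KNOLLE, dwarf samples had 14.89, 14.76 and 19.26 CPM in T+ dwarf, 17.3, 17.99 and 19.76 CPM in Gen1 dwarf and 23.96, 16.3, 24.54, 14.51 and 31.17 CPM in Gen2 dwarf. T+ normal 1 was the lowest of all 20 samples and Gen2 large 1 the highest, and KNOLLE fell by 0.53 ± 0.19 on the log2 scale (SE, edgeR adjusted p = 0.0411). CYCA1;1 (AT1G44110), an A-type cyclin, had 12.02, 11.09 and 9.919 CPM in WT, 6.288, 14.13 and 12.38 CPM in T+ normal and 18.19, 14.66 and 16.34 CPM in Gen2 large. For CYCA1;1, dwarf samples had 6.027, 9.376 and 9.352 CPM in T+ dwarf, 8.914, 6.828 and 10.53 CPM in Gen1 dwarf and 12.24, 8.41, 13.53, 7.931 and 14.38 CPM in Gen2 dwarf. The 3 Gen2 large samples lay above all 17 others, T+ normal 1 lay near the lowest dwarf sample, and CYCA1;1 fell by 0.42 ± 0.15 (adjusted p = 0.0371). CYCA2;3 (AT1G15570), a further A-type cyclin, had 10.23, 6.975 and 10.59 CPM in WT, 8.019, 15.44 and 10.28 CPM in T+ normal and 17.31, 11.62 and 14.2 CPM in Gen2 large. For CYCA2;3, dwarf samples had 9.199, 8.35 and 9.154 CPM in T+ dwarf, 7.722, 7.86 and 8.327 CPM in Gen1 dwarf and 11.41, 8.342, 11.12, 5.853 and 12.27 CPM in Gen2 dwarf. Gen2 dwarf 4 was lowest and Gen2 large 1 highest, and CYCA2;3 fell by 0.37 ± 0.14 (adjusted p = 0.049). KNOLLE, CYCA2;3 and the 4 CDKB loci overlap a gene on the opposite strand. Several of these calls stood close to the threshold: KNOLLE was called in 7, CYCB1;3 in 6, CYCA2;3 and CYCB2;2 in 8, CYCB1;2 in 9, CYCA1;1 in 11 and CDKB2;1 in 15 of the 20 fits that each left out 1 library, against 20 of 20 for CYCB2;3, CYCB1;4, CYCB2;4, CDKB1;2 and CDKB2;2. All 7 of these calls ended without T+ normal 2, without T+ dwarf 1 and without Gen1 dwarf 2. Over the 20 fits the largest adjusted p of these 7 genes ran from 0.0576 for CDKB2;1 to 0.115 for CYCA2;3, with 0.0884 for KNOLLE and 0.105 for CYCB1;3.

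Of the entry genes 2 fell. E2FA (AT2G36010), a transcription factor of the E2F family, had 7.565, 6.884 and 8.599 CPM in WT, 8.529, 10.07 and 6.708 CPM in T+ normal and 8.847, 7.148 and 9.153 CPM in Gen2 large. For E2FA, dwarf samples had 7.521, 5.412 and 6.495 CPM in T+ dwarf, 6.274, 6.397 and 4.869 CPM in Gen1 dwarf and 5.575, 7.144, 6.771, 5.974 and 7.378 CPM in Gen2 dwarf. Gen1 dwarf 3 was lowest and T+ normal 2 highest, with overlap between, and E2FA fell by 0.38 ± 0.10 on the log2 scale (SE, edgeR adjusted p = 0.00673). CYCD3;1 (AT4G34160), a D-type cyclin, had 26.65, 16.99 and 16.65 CPM in WT, 14.66, 25.07 and 18.37 CPM in T+ normal and 28.18, 18.01 and 22.36 CPM in Gen2 large. For CYCD3;1, dwarf samples had 14.37, 13.57 and 13.53 CPM in T+ dwarf, 13.67, 11.67 and 15.35 CPM in Gen1 dwarf and 29.82, 13.97, 18.4, 13.68 and 16.57 CPM in Gen2 dwarf. A dwarf sample, Gen2 dwarf 1, was the highest of all 20, yet CYCD3;1 fell by 0.45 ± 0.15 over the groups (adjusted p = 0.0255). CYCD3;2 (−0.25 ± 0.14, adjusted p = 0.168) and CYCD3;3 (−0.31 ± 0.19, adjusted p = 0.213) did not pass. E2FA, CYCD3;1 and CYCD3;2 each overlap another annotated gene. The CYCD3;1 call ended without WT 1, T+ normal 2, Gen1 dwarf 2 or Gen2 large 1, with an adjusted p of up to 0.0657.

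Markers of other tissues differed in the same contrast. Of 6 leaf markers (RBCS and LHCB genes of photosynthesis) 5 fell, and their summed level was 13000 to 19130 CPM in dwarf samples and 16760 to 34700 CPM in the others. Of 8 floral genes AP1, AP3 and PI rose and AG fell, with sums of 1.108 to 5.084 CPM over all samples, and AP1 was at 0 in at least 1 sample of each of the 3 groups that were not dwarf. None of the 3 testable meristem markers was called in the edgeR test, and their list summed to 46.43 to 104.2 CPM in dwarf and 45.59 to 73.01 CPM in other samples. CLV1, with group means of 43.89 to 56.32 CPM, made up most of that sum. STM averaged 6.124 CPM in T+ dwarf, 1.438 in Gen1 dwarf and 8.211 in Gen2 dwarf. It averaged 7.555 CPM in WT, 3.242 in T+ normal and 2.762 in Gen2 large. KNAT1 was also lowest in Gen1 dwarf (2.879 CPM) and highest in T+ dwarf (10.65 CPM). The part of these tissue differences in the cell-cycle values was not tested.

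Replication-related and mitotic genes outside the 39 were read from lists chosen by function, also with earlier results of these data known. Of 14 other replication genes 10 fell in the comparison of dwarf with other groups, including the GINS subunit genes PSF1 (−0.45 ± 0.10, SE, edgeR adjusted p = 0.00196), PSF2 and SLD5, the loading genes CDC6B and CDT1B, the polymerase subunit gene POLA1, RPA2A for single-strand binding, ETG1, and the chromatin assembly genes FAS1 and FAS2. Of 14 other mitotic genes 5 fell, which were AUR1, AUR2, CDC20.1, CDC20.2 and CCS52B. Of 12 other entry genes 4 fell, which were CYCA3;1, CYCA3;2, CYCD1;1 and CYCD4;1. None of the 40 rose. These shares were 71.43%, 35.71% and 33.33% of the 3 lists, against 15% of all tested genes called lower. The medians were −0.29, −0.44 and −0.10.

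The 3 comparisons without a shared sample set T+ dwarf against T+ normal, Gen2 dwarf against Gen2 large and Gen1 dwarf against WT. In all 3, 36 of the 39 members (92.31%) had a lower estimate in dwarf plants, against 26.99% of all tested genes, and 0 members had a higher estimate in all 3. All 15 mitotic and all 4 entry genes were among the 36, and the exceptions were TSO2, ORC1A and ORC5. Other replication genes were lower in all 3 in 13 of 14 cases, other mitotic genes in 14 of 14 and other entry genes in 6 of 12.

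**Figure D4:**
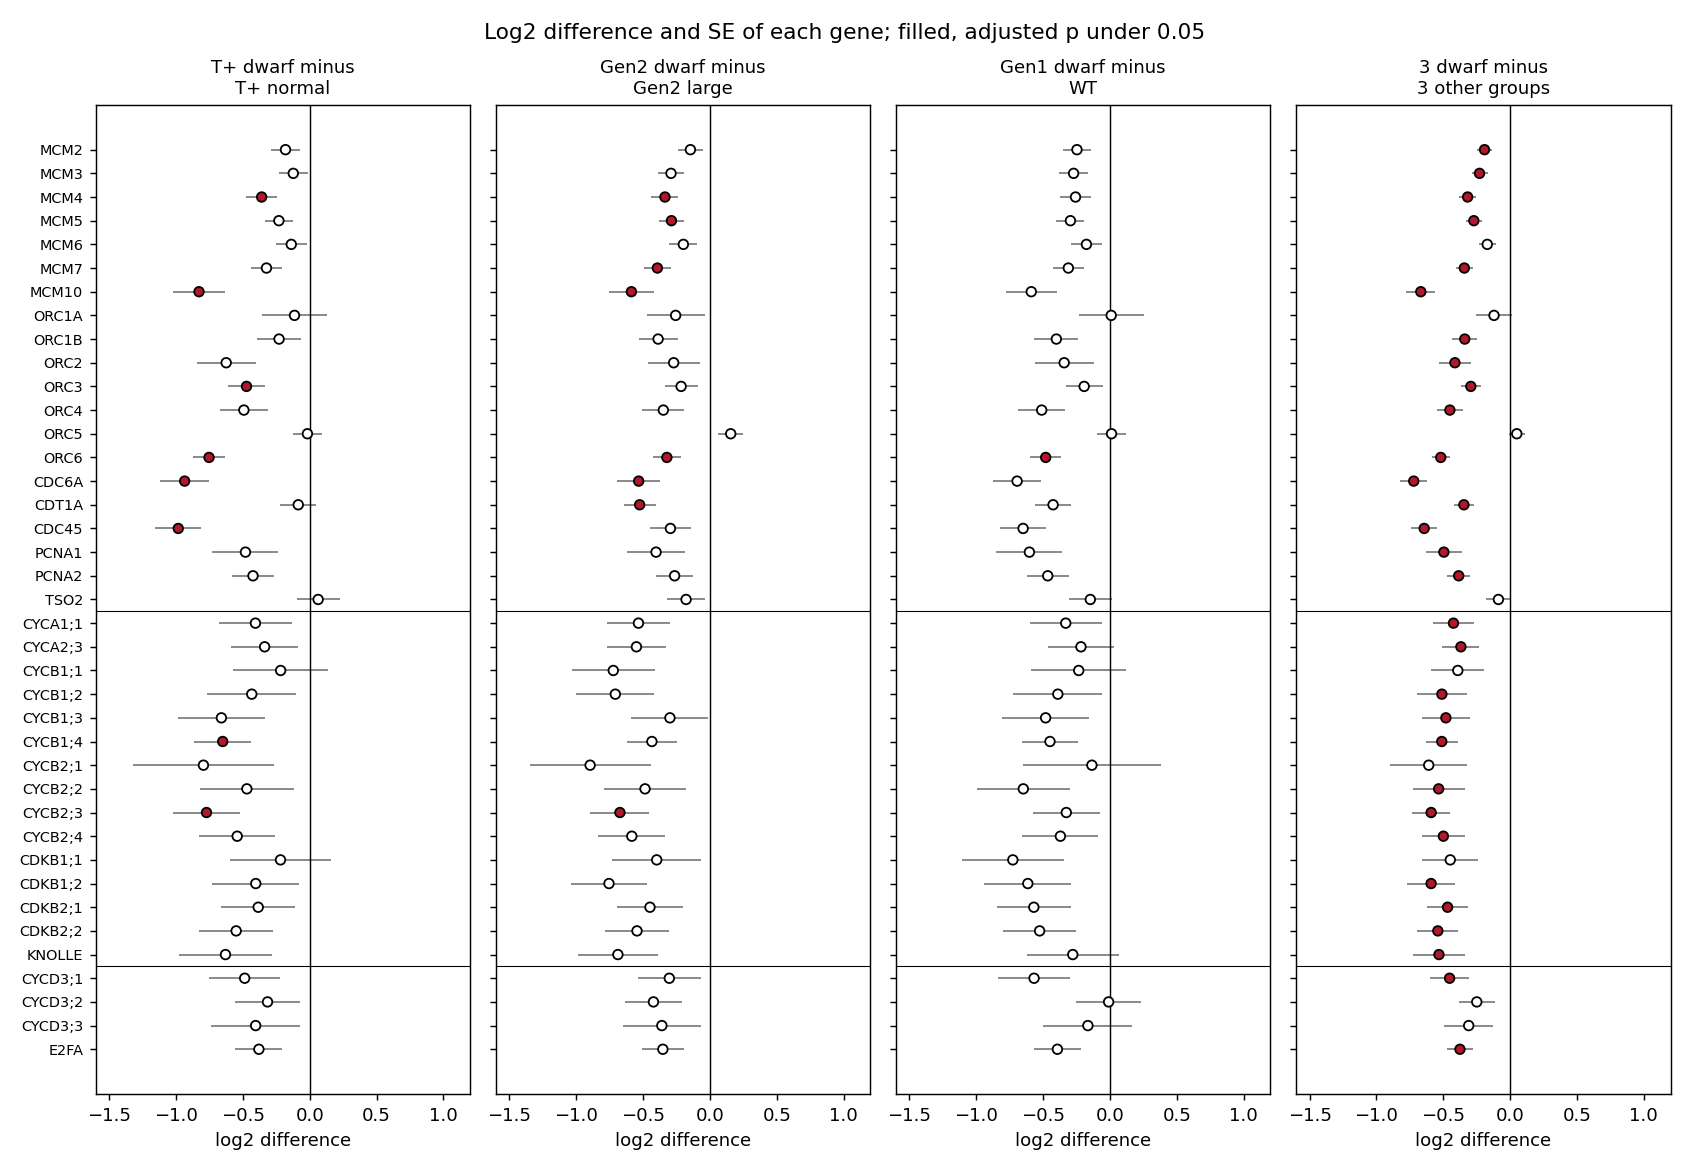
Log2 difference (horizontal axis, bars are SE) of each member in the 3 comparisons without a shared sample and in the comparison of all dwarf with all other groups. Filled points passed edgeR's adjusted p of 0.05; 30 of 39 are filled on the right, and nearly all points lie left of 0 in every panel.

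Among plants with the transgene, dwarf differed from normal by a fall of 8 members and a rise of none. Of all tested genes 15% were called, and 7.79% were called lower. The 8 were MCM4, MCM10, ORC3, ORC6, CDC6A, CDC45, CYCB1;4 and CYCB2;3. CDC45 stood far above its T+ dwarf values in T+ normal, and its log2 difference was −0.98 ± 0.17 (SE, edgeR adjusted p = 0.00122). CDC6A differed by −0.94 ± 0.18 (adjusted p = 0.00248), MCM10 by −0.83 ± 0.19 (adjusted p = 0.0081) and ORC6 by −0.75 ± 0.12 (adjusted p = 0.000771). The groups did not overlap for these 4, nor for ORC3 and MCM4. The share of all tested genes without overlap is not given here. CDC45, CDC6A, MCM10 and ORC6 were called in all 20 fits that left out 1 library. The other calls were less stable: ORC3 was called in 16, MCM4 in 9, CYCB2;3 in 8 and CYCB1;4 in 6 of those fits. The mitotic estimates were all negative with a median of −0.47, yet 13 of 15 did not pass. Without T+ normal 1, which was low in mitotic genes, their median was −0.83 and 11 members were called. The count was 4 without T+ dwarf 1 or T+ normal 2 and 5 without any Gen1 dwarf library, Gen2 dwarf 3 or Gen2 large 2. It was also 4, with no mitotic gene, when only the 2 compared groups were fitted. Tissue markers moved in the same comparison: 5 of 6 leaf markers fell (median −0.998 on the log2 scale), and of 8 floral genes AP1, AP3 and PI rose and AG fell. The 3 testable meristem markers had a median of 0.92, and 0 were called. Leaf markers summed to 14590 to 17560 CPM in T+ dwarf and 24620 to 34700 CPM in T+ normal, and floral genes to 1.874 to 5.084 CPM and 1.344 to 1.98 CPM. Their part in the 8 calls was not tested.

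Among null plants of Gen2, dwarf differed from large by a fall of 8 members, against 13.5% of all tested genes called and 4.79% called lower. These were MCM4, MCM5, MCM7, MCM10, ORC6, CDC6A, CDT1A and CYCB2;3. The groups did not overlap for CDT1A, which differed by −0.53 ± 0.12 on the log2 scale (SE, edgeR adjusted p = 0.00814). MCM7 differed by −0.39 ± 0.10 (adjusted p = 0.0182), MCM10 by −0.59 ± 0.17 (adjusted p = 0.0287) and CDC6A by −0.53 ± 0.16 (adjusted p = 0.0345), also without overlap. ORC6 and CYCB2;3 did not overlap either, while MCM4 and MCM5 did. The share of all tested genes without overlap is not given here. All 15 mitotic estimates were again negative, with a median of −0.55. Unadjusted, 10 had a p under 0.05, against 6545 of all 21703 tested genes in either direction. Only CYCB2;3 passed after adjustment (−0.67 ± 0.22, adjusted p = 0.0498). This call stood at the threshold: it held in 9 of 20 fits that left out a library, and ended without the filter on low counts (adjusted p = 0.0515), without robust estimation (0.0511) and with only the 2 compared groups fitted (0.0619). The count fell to 1 without Gen2 large 1 or Gen2 large 3, 2 without Gen2 dwarf 2 or 3, and 3 without Gen2 dwarf 4 or Gen2 large 2. It was 4 without the filter, 5 with only the 2 groups fitted and 11, with 6 mitotic genes, without T+ normal 1. CDT1A was called in all 20 fits that left out a library. Of 6 leaf markers 1, RBCS1A, fell here and of 8 floral genes AG fell. The 3 testable meristem markers had higher estimates in Gen2 dwarf (median 1.49 on the log2 scale), with 0 called by edgeR and 1 by DESeq2. STM averaged 8.211 CPM in Gen2 dwarf and 2.762 CPM in Gen2 large, KNAT1 8.916 and 3.161 CPM, and CLV1 56.32 and 43.89 CPM. The part of the meristem markers in these calls was not tested. Leaf markers summed to 15340 to 19130 CPM in Gen2 dwarf and 20160 to 32640 CPM in Gen2 large, and their part in these calls was not tested.

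The 2 dwarf effects shared 5 called members, which is 62.5% of each set of 8: MCM4, MCM10, ORC6, CDC6A and CYCB2;3. Of these, MCM10 and CDC6A were called in all 20 fits that left out 1 library in T+ plants and in 15 and 14 of 20 in Gen2. For ORC6 the counts were 20 and 10, for MCM4 9 and 14, and for CYCB2;3 8 and 9. Of all tested genes 2.064% were called lower in both, and of the 39 members 12.82%. A test of the difference between the 2 dwarf effects called 0 members (edgeR) and 0.654% of all genes. At an unadjusted p under 0.05 it held 3 members against 12.6% of all genes, and DESeq2 called 0 members and 2.97% of all. The 3 were CDC45, with an effect larger by 0.69 ± 0.23 in T+ plants (edgeR adjusted p = 0.185), ORC6, larger by 0.43 ± 0.16 in T+ plants (adjusted p = 0.235), and CDT1A, larger by 0.44 ± 0.18 in Gen2 plants (adjusted p = 0.307).

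Each group was also set against the same 3 WT samples, so these comparisons share their controls. In T+ dwarf, ORC6 was the 1 member called, at −0.75 ± 0.12 (SE, edgeR adjusted p = 0.018), where 0.0507% of all genes were called. The Gen1 dwarf group, which lacks the transgene, also had ORC6 as its 1 called member, at −0.48 ± 0.12 (adjusted p = 0.0412). This is 2.564% of the members, near the 2.01% of all genes called. All 39 estimates were negative in T+ dwarf and 37 in Gen1 dwarf. Next to the threshold in Gen1 dwarf were CDC6A (−0.69 ± 0.18, adjusted p = 0.0543) and CDC45 (−0.65 ± 0.17, adjusted p = 0.0557). The ORC6 call against WT ended without WT 1, WT 3 or any T+ dwarf library in the first case (adjusted p up to 0.156), and without WT 1, WT 3, Gen1 dwarf 2, Gen1 dwarf 3 or Gen2 dwarf 3 in the other (up to 0.153). In Gen1 dwarf against WT the 3 testable meristem markers had a median of −1.728, the 6 leaf markers −0.444 and the 8 floral genes 1.651. Of these markers 0 were called by edgeR, and their part in the estimates was not tested.

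Gen2 dwarf had 0 members called against WT by edgeR, where 0.0968% of all genes were called. Unadjusted, 4 members were lower, against 13.1% of all genes in either direction, and DESeq2 called 1 member, ORC6, and 1.67% of all genes. ORC6 differed by −0.41 ± 0.10 (SE, edgeR adjusted p = 0.119), with no overlap between the groups. How many of all tested genes separated these 2 groups is not given here. The replication median was −0.18 while the mitotic median was −0.01, with −0.15 (without WT 2) to 0.10 (without Gen2 dwarf 4) when 1 library was left out.

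Gen2 large had 0 members called against WT by edgeR, where 0.963% of all genes were called. Unadjusted, 8 members were higher and 0 lower, against 15.1% of all genes in either direction, and DESeq2 called 0 members and 3.46% of all genes. All 15 mitotic estimates were positive with a median of 0.57, and all 4 entry estimates were positive, while the replication median was 0.13. CYCB2;3 had the smallest p of the mitotic genes (0.77 ± 0.25, edgeR adjusted p = 0.154), and its 3 Gen2 large values lay above all 3 WT values. KNOLLE showed the same order (0.68 ± 0.34, adjusted p = 0.362). Neither gene was called, and the share of all tested genes in such an order is not given here.

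T+ normal plants had 0 members called against WT by edgeR, with 1.34% of all genes called. Unadjusted, 2 members were higher (ORC2 and CDC45), against 15.4% of all genes, and DESeq2 called 0 members and 5.5% of all genes. The mitotic median was 0.12 with all 3 samples, 0.46 without T+ normal 1 and −0.11 without T+ normal 2.

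The dwarf groups were also set against each other. Gen1 dwarf against T+ dwarf, which asks what differs between null plants and plants with the transgene, called 0 members in edgeR and 0.00461% of all genes. Unadjusted, 1 member was higher in Gen1 dwarf (ORC6, 0.26 ± 0.12, edgeR adjusted p = 0.988), against 4.85% of all genes, and DESeq2 called 0 members and 0.22% of all genes. Gen2 dwarf against Gen1 dwarf called 0 members in edgeR, where 0.235% of all genes were called. Of the estimates 36 of 39 were higher in Gen2 dwarf, 3 with an unadjusted p under 0.05 against 9.22% of all genes, and DESeq2 called 1 member, CDC45, and 1.48% of all genes. CDC45 differed by 0.55 ± 0.16 (SE, edgeR adjusted p = 0.161). Here the 3 testable meristem markers had a median of 1.638 on the log2 scale, the 6 leaf markers 0.349 and the 8 floral genes −1.053. Of these markers 0 were called by edgeR, and their part in the estimates was not tested.

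Taking any difference among the 6 groups, 13 members were called, against 21.2% of all genes. They were 11 replication genes, with MCM3, MCM4, MCM5, MCM7, MCM10, ORC4, ORC6, CDC6A, CDT1A, CDC45 and PCNA2, and 2 mitotic genes, CYCB1;4 and CYCB2;3. ORC6 had the smallest p (edgeR adjusted p = 0.00051). The count was 21 without T+ normal 1 and 8 without Gen2 large 1.

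S-phase and mitotic genes differed in how evenly the samples of 1 group behaved. The SD within groups on the log2 scale had a median of 0.177 over the 20 replication genes (0.1 to 0.33) and of 0.431 over the 15 mitotic genes (0.275 to 0.712), against 0.221 over all tested genes. For the 4 entry genes the median was 0.342. Without T+ normal 1, left out after seeing the data, the medians were 0.167 for replication, 0.304 for mitotic and 0.335 for entry genes, against 0.219 over all tested genes. To follow this by sample, the log2 CPM of each gene was centred on its mean over 20 samples and averaged over each list.

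The replication average was −0.308, −0.182 and −0.109 in T+ dwarf, −0.117, −0.255 and −0.296 in Gen1 dwarf and 0.104, −0.123, −0.129, −0.194 and −0.032 in Gen2 dwarf. It was 0.175, 0.104 and 0.098 in WT, 0.239, 0.199 and 0.121 in T+ normal and 0.29, 0.159 and 0.256 in Gen2 large. All 9 samples that were not dwarf lay above 0, and 10 of 11 dwarf samples lay below it, Gen2 dwarf 1 being the exception.

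The mitotic average sorted the samples differently. It was 0.833, 0.396 and 0.61 in Gen2 large, 0.28, −0.132 and 0.045 in WT, −0.492, −0.423 and −0.106 in T+ dwarf and −0.348, −0.512 and −0.177 in Gen1 dwarf. Gen2 dwarf fell on both sides of 0, with 0.242, 0.265 and 0.296 in samples 1, 3 and 5 and −0.349 and −0.539 in samples 2 and 4. Samples 2 and 4 also had the fewest gene counts of the series, 45728485 and 57636383, and the part of depth in this difference was not tested. The replication averages of these 5 samples spanned a narrower range.

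T+ normal 1 had the lowest mitotic average of all 20 samples, −0.886, together with a replication average of 0.239, a difference of 1.125. T+ normal 2 and 3 had mitotic averages of 0.528 and 0.47. In T+ normal 1, 0 of 15 mitotic genes were above their mean of 20 samples, and 16 of 20 replication genes were. KNOLLE had 9.612 CPM in T+ normal 1 against 31.08 and 35.03 CPM in the other 2 samples, and CYCB1;1 (AT4G37490), a marker of cells in G2 and mitosis, had 1.494 CPM against 6.209 and 5.547 CPM. CDKB1;1 showed the same order with 3.063 CPM against 10.51 and 9.738 CPM, while CDC45 was higher in T+ normal 1 than in any other sample. The lists of other genes gave the same picture, with an average of −0.83 for 14 other mitotic genes and 0.2 for 14 other replication genes in T+ normal 1. The 6 mitotic genes with an MSA word had a median of −1.10 in this sample and the 9 without had −0.78, and this was not tested. Leaf markers summed to 34700 CPM in T+ normal 1, the highest of the 20 samples, and their part in the mitotic values was not tested.

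**Figure D5:**
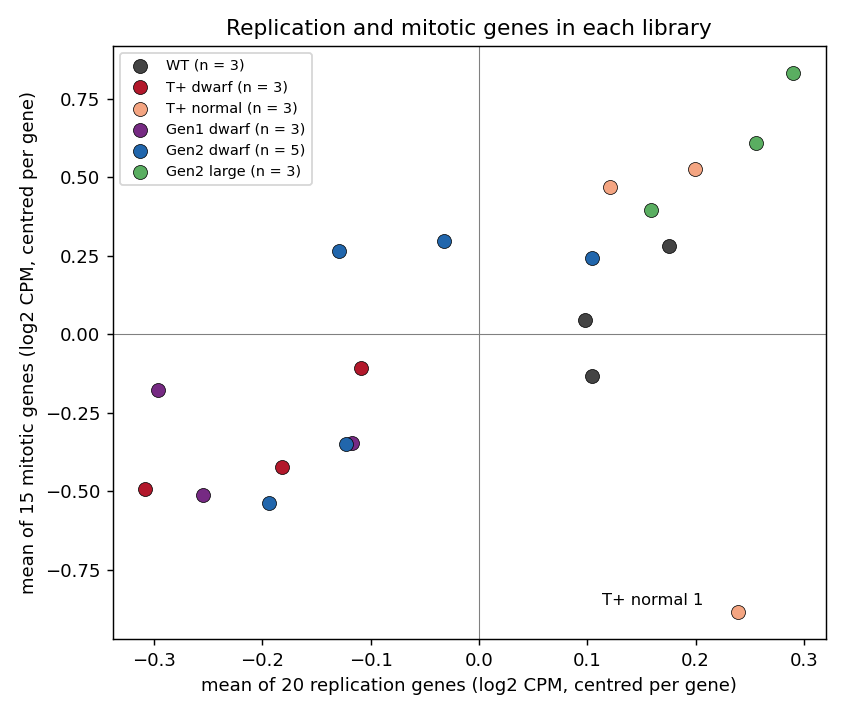
Average of the 15 mitotic genes (vertical) against that of the 20 replication genes (horizontal) in each library, as log2 CPM centred per gene, coloured by group. T+ normal 1 lies alone at the lower right (0.239, −0.886), and the 3 Gen2 large libraries lie at the upper right.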

How the data were processed

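The submitters' processing notes name Trim Galore 0.4.1, STAR 2.7.0a and the build TAIR10. The authors deposited 1 table of raw gene counts per sample; for the counting program, annotation and strand setting, not given in the sources used here, no assumption was made. Per the labels' protocols, libraries were paired-end, from a TruSeq v2 kit. The 5 summary lines without a gene were left out of library sizes; lines for reads without a feature came to 0.7758 to 1.138% of gene counts, and ambiguous reads to 0.2642 to 0.3601%.

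Counts were fitted in edgeR 4.0.16 (R 4.3.3, quasi-likelihood, TMM, robust) with 1 term per group over all 20 samples (14 residual degrees of freedom, common biological coefficient of variation 0.2247), after filterByExpr with a minimum count of 10. P-values were Benjamini-Hochberg adjusted over the 21703 genes kept. CPM used TMM-adjusted library sizes, and log2 CPM a prior count of 2. DESeq2 1.42.0 was an alternative. The script was tested on simulated data. Members and lists were chosen with earlier results of these data known. Values by sample are given for members called in a comparison or with their role's smallest p, and other genes are named where called. Gene spans and promoters come from RefSeq TAIR10.1.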

Additional observations from a re-analysis of the deposited data

Results flagged for a closer look

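In groups of 4 to 10 samples, which here means Gen2 dwarf alone, 41 values were examined for 1 sample far from the others, and 2 stood out. Chance flags about 1 in 20 such groups. MCM3 was highest in Gen2 dwarf 1, at 38.68 CPM, where the other 4 samples had 29.9 to 31.53 CPM. CDC45 was highest in Gen2 dwarf 5, at 8.016 CPM, where the other 4 had 5.358 to 6.096 CPM. Gen2 dwarf 1 was also the only dwarf sample with a replication average above the mean of 20 samples, at 0.104.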

How the results depend on the processing

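No called difference changed sign. Among differences with 0 called members, the mitotic median changed sign when 1 library was left out for T+ normal against WT (0.12, range −0.11 to 0.46), Gen2 dwarf against WT (−0.01, −0.15 to 0.10) and Gen1 dwarf against T+ dwarf (−0.06, −0.15 to 0.03), and the replication median for Gen1 dwarf against T+ dwarf (−0.03, −0.11 to 0.04). The count of 30 members that fell in dwarf groups came to 26 to 31 under the alternatives (26 with the replicate block) and to 22 to 33 when 1 library was left out; with WT taken out of the other side, an alternative chosen after seeing the data, it was 30. DESeq2 called 3 members in T+ dwarf against WT and 3 in Gen1 dwarf against WT, 1 in Gen2 dwarf against WT, 1 in Gen2 dwarf against Gen1 dwarf and 25 for any difference among groups. With only the compared groups in the fit, counts were 0 for T+ dwarf and 0 for Gen1 dwarf against WT, 4 for T+ dwarf against T+ normal and 5 for Gen2 dwarf against Gen2 large. Without the filter on low counts they were 0 for Gen1 dwarf against WT and 4 for Gen2 dwarf against Gen2 large. Leaving out 1 library gave 0 to 2 for T+ dwarf against WT, 0 to 3 for Gen1 dwarf against WT, 4 to 11 for T+ dwarf against T+ normal, 1 to 11 for Gen2 dwarf against Gen2 large and 8 to 21 for any difference. Where an alternative did not use fewer samples or other genes, the cause was not tested.

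Samples with the same replicate number did not deviate together (45 pairs, r from −0.44 to 0.39, median 0.02, 8 pairs over 0.1), so they are not treated as paired. With the replicate block, 1 member was called in Gen2 dwarf against Gen2 large and 2 in Gen1 dwarf against WT.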

Other observations

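Inhibitors and other regulators of the cell cycle were called in either direction. Of 17 such genes, 7 were called between dwarf and other groups, 4 higher and 3 lower (edgeR's quasi-likelihood test, adjusted over all tested genes). This is 41.18% of the list, near the 32.8% of all tested genes called (17.8% higher and 15% lower). The SIAMESE-related genes SMR5 and SMR7, whose products inhibit cyclin-dependent kinases, rose by 1.23 ± 0.35 (SE, adjusted p = 0.0115) and 1.00 ± 0.30 (adjusted p = 0.016) on the log2 scale. Both were low, with group means of SMR5 from 0.136 CPM in T+ normal to 0.617 CPM in T+ dwarf. KRP6, another kinase inhibitor, rose by 0.44 ± 0.11 (adjusted p = 0.00404), and CCS52A2, an activator of the anaphase-promoting complex, by 0.25 ± 0.09 (adjusted p = 0.0372). The kinase WEE1 fell by 0.49 ± 0.08 (adjusted p = 0.000156), the atypical E2F gene DEL1 by 0.43 ± 0.08 (adjusted p = 0.000436) and CCS52A1, also an activator of that complex, by 0.22 ± 0.08 (adjusted p = 0.0362). SIM, the founding SIAMESE gene, rose in T+ dwarf against T+ normal (0.76 ± 0.21, adjusted p = 0.0209).

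Of 5 genes for MYB3R factors and their partners 2 were called between dwarf and other groups. This is 40% of the list, near the 32.8% of all tested genes called. MYB3R4, an activator of mitotic genes, fell by 0.44 ± 0.12 (adjusted p = 0.0118) and TSO1 by 0.30 ± 0.06 (adjusted p = 0.000778) in dwarf groups. MYB3R1 rose in Gen2 large against WT (0.40 ± 0.09, adjusted p = 0.0476), where no mitotic member passed the test.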
